A study of Arabidopsis thaliana with 8 samples.

Results

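The members described here are array probes named by a chromosome interval instead of a gene locus, from the 5 nuclear chromosomes of Arabidopsis thaliana. They were chosen as non-control probes with an interval name, outside chromosome 2 starts from 2600000 to 6500000, that were marked well above background on at least 1 of 8 arrays. Of 8577 interval probes outside that range 2775 met the rule, which was 32.4% of them, out of 37478 non-control probes on the array. The nearest interval probes on either side of each end of the left-out range, chr2:2598224-2598283 and chr2:6545421-6545480 outside it and chr2:2600450-2600509 and chr2:6489201-6489260 inside it, were above background on 0 arrays. No annotation of the build behind these coordinates was used here, so the intervals were set against no gene model, and a member may lie in a gene, beside one or between genes.

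Interval probes of this kind read transcripts from parts of a chromosome that carried no gene name when an array was designed. Such transcripts include small genes found later, untranslated ends of known genes, antisense RNAs, pseudogenes and long noncoding RNAs. In plants, silencing by DNA methylation and heterochromatin keeps much of the repeat-rich sequence near the centromeres untranscribed.

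The study measured total RNA from leaves of 8 diploid strains, with 1 array of 1 colour per strain. Each strain descended from a plant that carried the gene of the restriction enzyme MseI, activated by heat at 33 °C for 3 h, a method called Ex-TAQing that breaks DNA inside living cells. The labelled plants were grown for 4 weeks on medium with 1% sucrose and 0.8% agar, in days of 16 h light and 8 h dark. All 8 strains share that history and no untreated strain was used here, so each strain is compared only with the other 7. Strains are named by their sample titles, since the descriptions give other strain numbers. The labels' molecule field names genomic DNA, while their protocols describe labelling of 200 ng of total RNA. Slide 1 carried strains ExTQ002, ExTQ003, ExTQ013 and ExTQ015, and slide 2 carried ExTQ005, ExTQ016, ExTQ018 and ExTQ019. Between slides limma called 0 of 2767 members and 0.0% of all 27245 probes tested, the smallest adjusted p was 0.366, and 270 members and 2683 probes in all had an unadjusted p under 0.05.

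Leaf markers were above background on every array, all 5 of 5 listed genes, with a summed level on the log2 scale from 8.70 to 9.30. The flower list ranged from −0.64 in ExTQ002, where 3 of 5 genes were above background, to 3.96 in ExTQ018. The list of tapetum and pollen genes ranged from −4.63 in ExTQ002 to 1.44 in ExTQ018. Seed genes were above background in ExTQ016 (4 of 4, summed level 6.41) and ExTQ018 (3 of 4, −1.51), and 0 of 4 were in the other strains. Of 3 root hair genes, 0 to 2 were above background. What these differences in tissue contribute to the members' values was not tested, and more cells of a type and more RNA per cell cannot be told apart here.

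A level is the log2 processed intensity minus the 75th percentile of that array, so 0 is that percentile. Levels of different probes are not set against each other, because probes differ in how they bind. Of the members, 1260 were above background on all 8 arrays, 45.4% of the 2775, and 540 on a single array. The other 975 were above on some arrays between those limits, and 5802 interval probes were above on none. Among probes named by a locus, 22920 of 26236 (87.4%) were above background on at least 1 array and 73.8% on all 8. Most members, 2720, span 60 bases, 11 are shorter and 44 longer, and 1439 are written in forward coordinate order against 1336 in reverse. All 11 short members were above background on all 8 arrays.

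Chromosome 1 held the highest share of detected interval probes, 793 of 2165 or 36.6%. The other shares were 31.0% for chromosome 2 (369 of 1190), 31.0% for chromosome 3 (552 of 1783), 29.8% for chromosome 4 (373 of 1250) and 31.4% for chromosome 5 (688 of 2189). Chromosome 1 was the highest in each strain too, from 450 of 2165 probes (20.8%) in ExTQ015 to 649 in ExTQ019.

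Across strains, the share of interval probes above background was lowest in ExTQ015, at 18.1% (1555 probes). It was 19.9% in ExTQ003, 20.8% in ExTQ002, 21.3% in ExTQ013, 21.8% in ExTQ018, 22.6% in ExTQ005 and 24.6% in ExTQ016. It was highest in ExTQ019, at 25.2% (2158 probes). Shares over the 4 strains of slide 1 all lay below those of slide 2, and the part of the slide was not tested. The dimmest level marked well above background on an array moved with these shares. It was −7.22 in ExTQ015, −7.37 in ExTQ003, −7.55 in ExTQ002 and −8.06 in ExTQ019, and between −7.83 and −7.62 in the rest. The part of this detection floor in the order of the strains was not tested. With 1 array per strain there is no error on these shares beyond the spread of the strains, an SD of 2.34 percentage points. The order was not that of locus probes, which were most often detected in ExTQ016 (83.6%) and next in ExTQ018 (81.8%), with ExTQ019 at 80.0%. Members above background in 1 strain alone numbered 201 in ExTQ019 (2.34% of interval probes) and 119 in ExTQ016 (1.39%), and 21 to 52 in the others. ExTQ016 also had 463 locus probes above background alone (1.76% of locus probes), against 208 in ExTQ019 (0.793%). The share of interval probes was thus above that of locus probes in ExTQ019, which was not particular to that strain. The same held in ExTQ002 (0.606% against 0.172%), ExTQ003, ExTQ005, ExTQ013 and ExTQ015. It was below in ExTQ016 and in ExTQ018 (0.245% against 0.393%). Missing in 1 strain alone were 78 members in ExTQ015, 32 in ExTQ002, 31 in ExTQ019 and 23 in ExTQ003, and 2 to 9 in the rest.

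**Figure D1:**
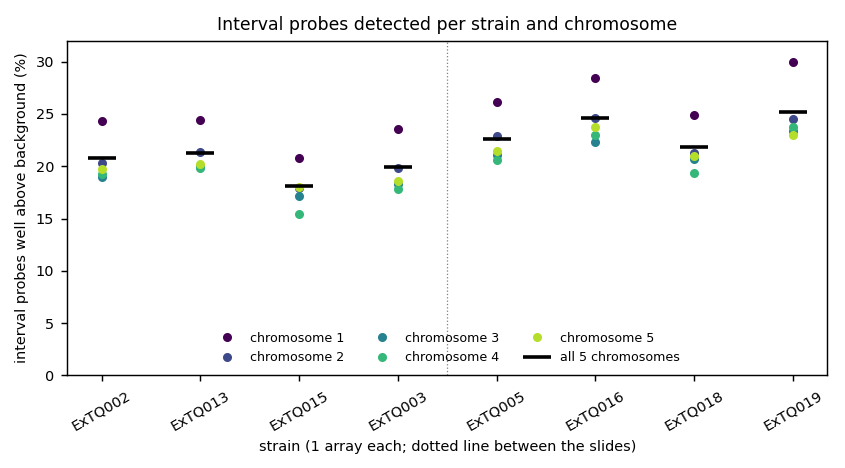
Share of interval probes well above background (percent, vertical axis) in each of the 8 strains, 1 array each, with points for the 5 chromosomes and bars for all of them. Chromosome 1 lies above the others in every strain, and the bars run from 18.1% in ExTQ015 to 25.2% in ExTQ019.

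The 2 brightest members of each chromosome ranged from steady to variable across strains. On chromosome 5, chr5:10186377-10186436 had a lowest level of 3.75, a median of 4.12 and a highest of 4.37. On chromosome 1, chr1:17334128-17334187 had 1.22, 1.34 and 1.45, an SD of 0.08 over the 8 strains. Both stayed within a narrow band, with no strain apart. The widest range was that of chr5:17986282-17986341, at 0.15 in ExTQ016, a median of 1.78 and 3.94 in ExTQ019. Next was chr4:58530-58581, at −0.66 in ExTQ019, a median of 1.11 and 1.72 in ExTQ002. ExTQ019 was the highest strain in one and the lowest in the other. A further wide one, chr2:13278935-13278994, was at 0.86 in ExTQ019, with a median of 2.24 and a highest of 2.74 in ExTQ002. Between these and the steady ones, chr1:5298044-5298103 ran from 1.82 in ExTQ003 to 2.96 in ExTQ015. Likewise chr4:9177032-9177091 ran from 0.68 in ExTQ003 to 1.62 in ExTQ002. One member, chr1:8755137-8755196, was printed many times, and its 9 to 10 usable spots per array had an SD of 0.05 to 0.09. Its level was −3.70 in ExTQ018, with a median of −3.42, and −2.46 in ExTQ019, with no other strain near the highest. The SD of spots holds no difference between plants or arrays.

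Among the 1259 members above background on all 8 arrays with a value on each, the median SD over strains was 0.35, and 33 (2.62%) had an SD of at least 1, where normexp left 10 and so did the authors' deposited series values. Of locus probes above on all 8 arrays, 1580 of 19352 (8.16%) did. With the 75th percentile subtracted, over the middle 50 percent of the members' mean levels, from −5.94 to −3.48, the shares were 22 of 629 members (3.5%) and 501 of 2315 locus probes (21.6%). ExTQ019 was the lowest strain for 19 of the 33 and the highest for 10, and without it 16 members had an SD of at least 1.

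The member of largest SD, chr4:12152627-12152686 (reverse order, SD 2.53), had a lowest level of −7.17 in ExTQ016, a median of −3.82 and a highest of 0.34 in ExTQ019. Its levels formed a gradient and not a pair of groups, with ExTQ002 at −1.30, ExTQ013 at −2.30 and ExTQ003 at −6.00. The locus probes most like it, of 1580 with an SD of at least 1, were AT1G35710 (r = 0.997) and NAC036 (AT2G17040), a NAC transcription factor (r = 0.995). These correlations run over 8 arrays that the probes share and describe likeness of pattern only. In chr5:22486202-22486261 (SD 1.94) the lowest level was −5.59 in ExTQ003, the median −3.93 and the highest 0.29 in ExTQ019. Most like it were AT5G10760, an aspartyl protease, and AT1G58225, both at r = 0.998. In chr2:16503281-16503340 (SD 1.60) ExTQ019, ExTQ002 and ExTQ013 were high, at −1.53, −1.80 and −1.82, and the other 5 lay between −5.29 and −4.22. Its closest locus probes were PTR3 (AT5G46050), a peptide transporter (r = 0.994), and HR4 (AT3G50480), a homolog of the resistance gene RPW8 (r = 0.990).

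Another pattern was high in ExTQ002 and ExTQ013 without ExTQ019. The member chr1:2561786-2561845 (SD 1.61) was at −0.11 and −0.27 in those strains, with a median of −3.05 over all 8 and a lowest level of −4.11 in ExTQ019. The high pair lay apart from the other 6, of which ExTQ015 was next at −2.02. Most like it were AT2G45135 (r = 0.995) and NPC4 (AT3G03530), a phospholipase C that acts on membrane lipids in phosphate-starved plants (r = 0.990). The member chr1:167023-167082 (reverse order) was likewise high in ExTQ013 (−2.80) and ExTQ002 (−3.07), with a median of −5.44 and a lowest level of −6.86 in ExTQ018. The member chr5:13967195-13967254 (SD 1.51) ran the other way. It was low in ExTQ019 (−5.95), ExTQ002 (−5.71) and ExTQ013 (−4.63), with a median of −3.15 and a highest level of −2.03 in ExTQ005.

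**Figure D2:**
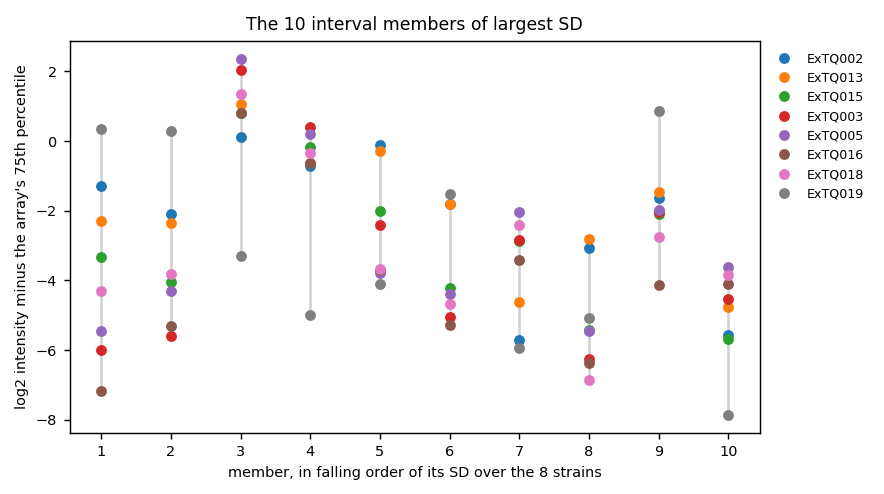
Level of the 10 members of largest SD (log2 intensity minus the array's 75th percentile, vertical axis), 1 point per strain, in falling order of SD. ExTQ019 is the lowest or the highest point in 9 of these 10 members.

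Limma compared each strain with the other 7 over all 27245 probes tested, and a call needed a log2 difference of 1 or more and a Benjamini-Hochberg adjusted p below 0.05. The spread of a lone strain is taken to be that of the others, and an exact permutation test of 1 strain against 7 cannot give a p below 1 in 8. In ExTQ019, 255 of 2767 members tested were called, 9.22%, against 10.3% of all probes, so the share was near the background. Of these, 76 were higher (background 3.98% of all probes) and 179 lower (background 6.31%). The median log2 difference was 2.01 for those higher and −1.63 for those lower. Higher members above background in ExTQ019 alone entered the test only through that array and had to differ. The counts and shares of higher calls, and of all calls, include them and to that extent describe that array. Of the lower members 117 were above background on all 8 arrays, and of the higher 32, while another 32 of the higher were above in ExTQ019 alone. With the slide as a block 310 members were called, against the 3 others of the slide 325, and with the authors' deposited series values 61, of which 52 were among the 255.

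Among members lower in ExTQ019, chr3:16631379-16631438 was at −5.005 there and at −0.71, −0.35 and 0.39 (lowest, median, highest) in the 7 others. No other strain came near it, and the difference was −4.74 ± 0.43 (SE, limma adjusted p = 0.00195). A neighbour in the same coordinate order, chr3:16629050-16629109, starts 2329 bases away and was lowest in the same strain, at −7.47, with a median of −3.86 over the 8 strains and a highest level of −3.43. The pair followed each other over the 8 strains with r = 0.98. Locus probes most like the first were AT2G20670 and BT2 (AT3G48360), a BTB and TAZ domain protein, both at r = 0.996. The member chr5:7891337-7891396 was at −3.29 in ExTQ019 and at 0.10, 1.05 and 2.37 in the others. Its difference was −4.51 ± 0.76 (SE, limma adjusted p = 0.00967), and the strains did not overlap. Its closest locus probes were RUP1 (AT5G52250), a repressor of UV-B signalling (r = 0.990), and ACHT5 (AT5G61440), a chloroplast thioredoxin (r = 0.986).

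Some lower members were not well above background in ExTQ019, so their fold is a bound. It sets the 7 others' mean against the higher of the member's own level and the lowest level well above background on the ExTQ019 array. The member chr5:17845558-17845617 was at −9.51 there and at −5.64, −3.37 and −2.81 in the others, at least 19.7-fold lower (limma adjusted p = 0.00867). For chr5:23960390-23960449 the bound was 5.22-fold lower (limma adjusted p = 0.00483), and for chr1:11610561-11610620 it was 3.67-fold lower (limma adjusted p = 0.00173).

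Among members higher in ExTQ019, chr3:18031583-18031642 was at −3.39 there and at −7.98, −7.69 and −6.33 in the others, where 3 strains were marked well above background. The fitted difference was 4.07 ± 0.61 (SE, limma adjusted p = 0.0067), with the other 4 strains not well above background, so it is not an exact fold. The member chr3:61633-61692 was at −3.20 and at −7.56, −7.09 and −6.34 in the others, with ExTQ003 and ExTQ005 not well above background. Its fitted difference was 3.75 ± 0.48 (SE, limma adjusted p = 0.0042), with the same limit. In both the strains did not overlap. For chr1:3232234-3232293, chr4:7785588-7785647 and chr4:10091512-10091571 no other strain was above background, and they were at least 9.94, 4.98 and 4.84-fold higher (limma adjusted p = 0.00112, 0.00956 and 0.000513). These 3 entered the test through the ExTQ019 array alone. The fold of a higher member, here and below, sets its level against a mean over the 7 other arrays. That mean is of the lowest level well above background on each of them. Such a level is no strict limit, since chr3:19234611-19234670 was at −6.88 in ExTQ015 without the mark, where the lowest marked level was −7.22. Each fold given as at least, higher or lower, is a bound only against such levels.

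The share of members lower in ExTQ019 differed by position. The cut on chromosome 5 at base 20000000 was added with the shift there known, so the counts on its sides are descriptions. The background share of lower calls given above is over all probes, and none is given for locus probes of the same stretches. On chromosome 5 after base 20000000, 38 of 193 members tested (19.7%) were called lower and 1 higher, and up to that base 28 of 493 (5.68%) were lower and 20 higher. On chromosome 3, 46 of 550 (8.36%) were called lower, and on chromosomes 1, 2 and 4 the shares were 4.04%, 4.89% and 4.58%. For a view that needs no call, each member above background in at least 6 of the other 7 strains was given its difference from their median, minus the strain's median over all such members. In bins of 2500000 bases with at least 5 members, ExTQ019 had 5 of 47 bins with a median of at least 0.5 in size, and 0 with normexp or the authors' deposited series values. The lowest was chr5:20000001-22500000, at −0.84 over 30 members. The highest was chr2:5000001-7500000, at 0.50 over 7 members. In the other strains all 47 bins lay within ±0.5, between −0.41 and 0.46.

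The 109 such members of chromosome 5 after base 20000000 had a median difference of −0.69 in ExTQ019, and 97 of them (89.0%) lay below 0. The other 7 strains had medians of 0.00 to 0.05 there. The 238 members before that base had a median of 0.07 in ExTQ019. The shift was alike in the brighter members (−0.66) and the dimmer (−0.69), and in forward order (−0.61) and reverse order (−0.73). With the authors' deposited series values the median was −0.22, and the share below 0 was again 89.0%. Not every member there was low, since chr5:22486202-22486261, described above, was at its highest in ExTQ019.

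In bins of 1000000 bases, chosen after the wider bins were seen, the median fell from 0.08 at chr5:19000001-20000000 (9 members) to −0.92 at chr5:20000001-21000000 (11 members) and −1.08 at chr5:21000001-22000000 (12 members). On chromosome 3 the bins from chr3:4000001-5000000 to chr3:6000001-7000000 had medians of −0.51, −0.75 and −0.59 over 17, 11 and 26 members, while the bins on either side were at 0.32 and 0.17. On chromosome 2, chr2:19000001-20000000 was at −0.63 over 17 members, where the bin before it was at 0.00. In all, 13 of 105 such bins in ExTQ019 were at or below −0.5. Of these, 3 lay outside those stretches, at chr1:12000001-13000000 (−0.56 over 10 members), chr3:16000001-17000000 (−0.76 over 9) and chr5:9000001-10000000 (−0.56 over 5). Bins past 0.5 upward in ExTQ019 were chr2:6000001-7000000 (0.50 over 5 members, all past the left-out range) and chr5:18000001-19000000 (0.51 over 12). Among the other strains, ExTQ002 had 1 bin below −0.5, of 6 members, and ExTQ003 had 1 above 0.5, chr3:11000001-12000000 (0.62 over 10 members). Locus probes, ordered by the number in their locus name and cut into 10 equal segments per chromosome, were low in ExTQ019 in parts of chromosomes 2, 3 and 5. Segments 8, 9 and 10 of chromosome 5 had medians of −0.83, −0.83 and −0.90, and segment 7 was at −0.03. Segment 10 of chromosome 2 was at −0.60, and segments 3, 4 and 5 of chromosome 3 were at −0.67, −0.84 and −0.15. All 10 segments of chromosome 1 lay between 0.01 and 0.12. Segments 6 to 10 of chromosome 3 lay between −0.02 and 0.12, and segments 1 to 7 of chromosome 5 between −0.03 and 0.13. The 3 single low member bins were not placed within these segments. A segment of chromosome 1 holds 525 or 526 locus probes, so its median can miss a shift as narrow as a bin of 1000000 bases.

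Smaller shifts of locus probes lay in 2 other strains. In ExTQ003 segment 6 of chromosome 5 was at −0.22 over 470 locus probes, and segment 3 at −0.13 over 471. That strain's lowest member bin was chr5:15000001-17500000, at −0.32 over 31 members. Its bin chr5:2500001-5000000 was at −0.19 over 47 members, and chr5:20000001-22500000 at −0.18 over 31. In ExTQ015 segment 9 of chromosome 2 was at −0.36 over 309 locus probes. Its member bin chr2:17000001-18000000 was at −0.26 over 15 members, and chr2:16000001-17000000 at 0.08 over 16. That strain had lower bins elsewhere, down to −0.42 over 12 members at chr4:15000001-16000000, so the bin does not stand out there. No bin of these examples passes ±0.5, and the lowest bin of 1000000 bases among the 7 other strains was −0.54.

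**Figure D3:**
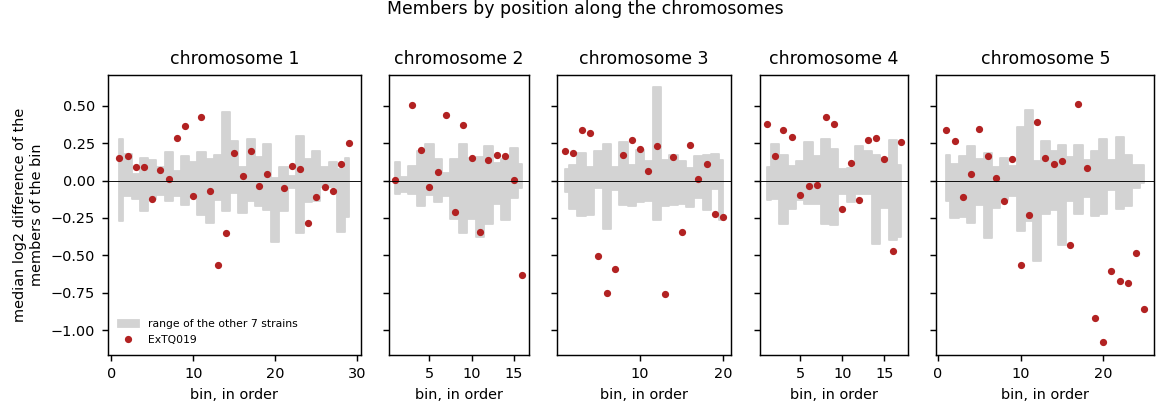
Median log2 difference of the members in bins of 1000000 bases (vertical axis), in order along the 5 chromosomes, for ExTQ019 (points) and the range of the other 7 strains (grey). Bins at the end of chromosome 5 reach −1.08 in ExTQ019, and low bins also lie at the end of chromosome 2, in chromosome 3, and singly on chromosomes 1 and 5.

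In ExTQ016, 28 members were called higher and 1 lower, 1.05% of those tested against 1.25% of all probes (1.24% higher). Of the 28, 27 were above background in ExTQ016 alone and had to differ to enter the test, and among the 1259 members above on all 8 arrays limma called 0, with 35 at an unadjusted p under 0.05. The largest, chr5:19043354-19043413, was at −3.41 in ExTQ016 and at −9.78, −9.44 and −9.06 in the others. It was at least 18.6-fold higher (limma adjusted p = 8.44e-05). For chr1:9482997-9483056, chr2:11211300-11211359, chr5:22852976-22853035 and chr3:10025733-10025792 the bounds were 9.78, 8.46, 8.40 and 4.90-fold. With the authors' deposited series values 2 members were called in ExTQ016, 1 of them among the 29, and against the 3 others of the slide 0, with 107 at an unadjusted p under 0.05 in limma. For 12 of the 27 another spot above on that array alone lay within 2 rows and 2 columns on the glass, and without them 17 calls were left. Of all 119 interval probes above in ExTQ016 alone, 36.1% had such a neighbour, and of 463 such locus probes 34.1% had. That array had 624 probes of any kind above there alone, against 90 in ExTQ015. ExTQ016 was also the strain with all 4 seed genes above background. The part of spot position and of seed tissue in these calls was not tested. The lower member, chr1:6053410-6053469, was at −8.75 there and at −6.81, −6.56 and −6.17 in the others, at least 2.46-fold lower (limma adjusted p = 0.00576).

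In ExTQ015, 23 members were called higher and 2 lower, 0.904% against 0.158% of all probes. All 23 were above background in ExTQ015 alone, and for 22 of them another spot above on that array alone lay within 2 rows and 2 columns on the glass. They entered the test only through that array and had to differ, so their count, share and p describe that array and support nothing further. Of the 42 interval probes above in ExTQ015 alone, 78.6% had such a neighbour, against 23.9% of 201 in ExTQ019. The spots traced a narrow curved band and a few patches, and called neighbours on the glass included members of chromosomes 2, 3 and 4. The brightest, chr3:10701120-10701179, was at −2.64 in ExTQ015 and at −9.89, −9.46 and −9.07 in the others, at least 33.7-fold higher (limma adjusted p = 0.000339). With the authors' deposited series values 3 members were called in ExTQ015, and the part of the spots' position in these calls was not tested. The lower members had no such neighbour. Of these, chr1:16578573-16578632 was at −9.19 in ExTQ015 and at −6.84, −6.42 and −6.21 in the others, at least 1.71-fold lower (limma adjusted p = 0.00605). The other, chr1:7996322-7996381, was at −9.27 in ExTQ015, with a median of −7.26 in the others (limma adjusted p = 0.00944). The others' mean, −7.25, is itself under the dimmest level well above background on the ExTQ015 array, −7.22, so no fold can be given.

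**Figure D4:**
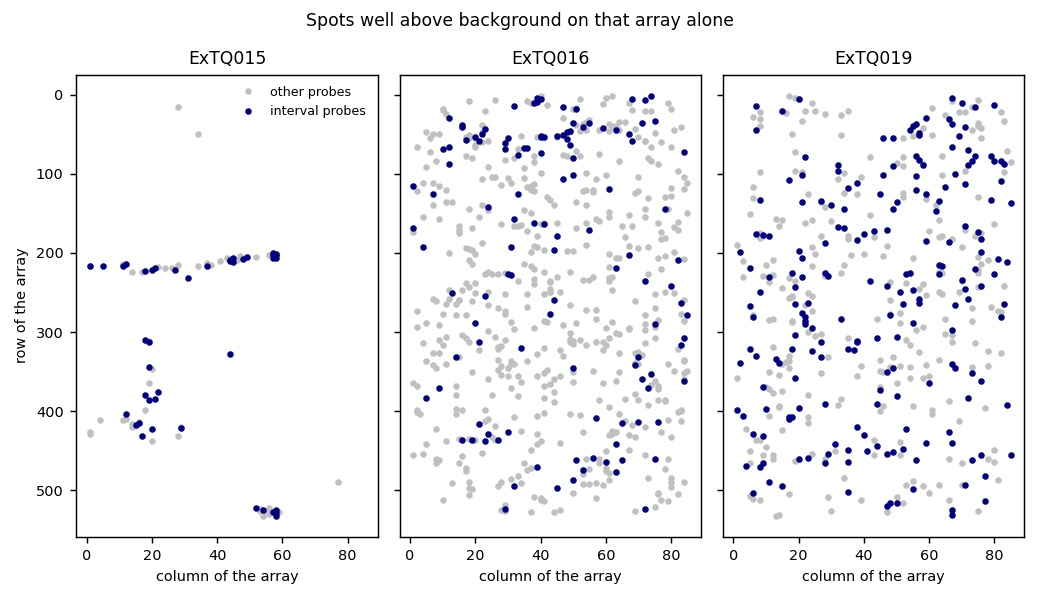
Position on the array (row against column) of spots well above background on that array alone, for ExTQ015, ExTQ016 and ExTQ019, with interval probes dark and other probes grey. In ExTQ015 they follow a narrow band and patches, where 78.6% of the interval probes have another such spot within 2 rows and 2 columns, while in ExTQ019 they are spread out.

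The remaining strains had few calls, each from a member above background in that strain alone. Such members had to differ to enter the test, so counts, shares and p-values describe single arrays. In ExTQ005 the raw median intensity of chr4:14592945-14593004 was 52.5, against 42.0 to 55.0 in the others. For chr2:12167126-12167185 it was 58.5 against 48.0 to 59.0, and for chr5:9669060-9669119 it was 58.0 against 48.5 to 58.0. For chr3:2378140-2378199 and chr3:4388566-4388625 it was 80.0 and 67.5, above the others' highest of 56.0. In ExTQ002, ExTQ005 and ExTQ013 limma called 0 with normexp, with the authors' deposited series values, within the slide and with trend and robust moderation, with 15 to 218 members at an unadjusted p under 0.05. ExTQ002 had 8 higher, 0.289% against 0.106% of all probes (0.0551% higher and 0.0514% lower), of which 5 had a neighbouring spot as above. Its largest, chr5:5603856-5603915, was at −5.25 in ExTQ002 and at −10.40, −10.03 and −9.55 in the others, at least 5.35-fold higher (limma adjusted p = 0.011). The count in ExTQ002 was 23 without ExTQ013, 14 without ExTQ019 and 2 without ExTQ005, ExTQ016 or ExTQ018. ExTQ005 had 5 higher, 0.181% against 0.0367%, led by chr3:2378140-2378199, at least 3.16-fold higher (limma adjusted p = 0.0238). Without ExTQ019 1 was called there, and without any other single strain 0, with 81 to 95 members at an unadjusted p under 0.05 in limma. ExTQ013 had 1, 0.0361% against 0.00367%, chr5:6207292-6207351, at least 12.3-fold higher (limma adjusted p = 0.0319), with a neighbouring spot. It was called without ExTQ015 too, but not without any other single strain. ExTQ018 had 0 called by limma against 0.0% of all probes, with 65 members at an unadjusted p under 0.05.

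ExTQ003 had 2 members called higher, 0.0723% against 0.011%, and both stood in a bright surrounding. Without any single other strain 0 were called, with 129 to 206 members at an unadjusted p under 0.05 in limma. For chr4:12323099-12323158 the local background intensity in ExTQ003 was 15794 and the spot's own median 215.5, where the array's median local background was 33.0. For chr3:6389771-6389830 they were 1926.5 and 68.0. With the authors' deposited series values both differences turned to the other sign, at −5.404 and −2.549. No other called member had a local background above its own spot. The part of the bright surrounding in these calls was not tested.

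Neighbouring members tended to vary together. Among members above background on all 8 arrays, 93 pairs that start within 1000 bases of each other in the same coordinate order had a median r of 0.72 over the 8 strains. In opposite order, 17 such pairs had a median of 0.52, and 619521 pairs on different chromosomes had a median of 0.05. Pairs share members and all share the 8 arrays, so these are descriptions. Detection followed the same order. Within 1000 bases, both probes were members in 247 of 1084 pairs in the same order (22.8%) and in 49 of 592 in opposite order (8.28%). Of 188 probe pairs that overlap in opposite order, which read the same bases on both strands if the order marks the strand, both were members in 11 (5.85%), 1 in 41 and neither in 136. In 5 of these pairs both were above background on all 8 arrays, with r of 0.207, 0.325, 0.43, 0.763 and 0.821. The pair of highest r held chr5:10186377-10186436, and its partner chr5:10186331-10186390 had a mean level of −5.42.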

How the data were processed

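Per the file headers, the deposited intensity values are background-subtracted processed signals of Agilent Feature Extraction 11.0.1.1 (1 colour), not scaled between arrays. The raw median intensity of spots and local backgrounds came from the same files. The deposited series table holds log2 values of unstated normalization; each column matched its own array best, and its column medians lie between 7.64 and 7.65. The headers and labels name no genome build. The background, outlier and saturation marks are those of the deposited files.

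Outlier spots were set aside, spots of a probe averaged and the array's 75th percentile subtracted from log2 values. Probes above background on at least 1 array with a value on all (27245) were fitted with limma 3.58.1 in R 4.3.3, tested on simulated data first. The files hold no mean spot signal, so normexp (offset 50) used the medians. All 8 samples form 1 group, and p-values measure only the spread between these strains. The number of arrays limits the precision.

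Members and lists were chosen with earlier results of these data known. Members named are, per strain, the 5 largest calls each way, the 10 of largest SD, the 2 brightest per chromosome, the 3 brightest above in 1 strain alone, like neighbour pairs and extreme bins, and for the 6 of largest SD the 2 locus probes most alike. Alternatives were other normalizations, filters, slide as a block, within the slide, moderation, adjustment and leaving out each strain.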

Additional observations from a re-analysis of the deposited data

Results flagged for a closer look

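Over 43 sets of 8 strain values, 9 had an end value far from the rest, measured as the gap to the nearest strain over the whole range, and chance alone gives about 1 in 20 such sets. That rate does not apply to items chosen for their calls, their SD or a shift already seen, as several here were, so the count is a description. Of these, 8 were ExTQ019. The levels of chr3:16631379-16631438 (−5.005), its neighbour chr3:16629050-16629109 (−7.467), chr5:7891337-7891396 (−3.292) and chr2:13278935-13278994 (0.862) were low there. The level of chr1:8755137-8755196, the member printed on many spots, was high there, at −2.455. On chromosome 4, 2.80% of interval probes were above background in ExTQ019 alone. Over members above background on all 8 arrays, the median difference on chromosome 5 was −0.365 in ExTQ019, and after base 20000000, over members above in at least 6 of the others, it was −0.685. In ExTQ015, 78.6% of the members above background there alone had another such spot within 2 rows and 2 columns.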

How the results depend on the processing

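Strains are taken as slide 1 (ExTQ002, ExTQ013, ExTQ015, ExTQ003), then slide 2 (ExTQ005, ExTQ016, ExTQ018, ExTQ019), and the reported counts of called members were 8, 1, 25, 2, 5, 29, 0 and 255. Normexp on the median signals gave 0, 0, 4, 1, 0, 2, 0 and 63, and the authors' deposited series values 0, 0, 3, 3, 0, 2, 0 and 61. Quantile normalization gave 16, 7, 28, 2, 9, 29, 0 and 195. Probes above background on all 8 arrays gave 0 for all but ExTQ019 (169), with fewer probes tested, and comparison within the slide gave 0 for all but ExTQ019 (325). Moderation with trend and robust settings gave 0, 0, 2, 0, 0, 17, 0 and 220, and adjustment over all strains 16, 10, 33, 7, 11, 27, 1 and 84. No filter on dim probes gave 43 in ExTQ015 and 3 in ExTQ005, kept outlier spots 6 in ExTQ003, and the slide as a block 0 in ExTQ003. In alternatives added after seeing the data, spots close to another spot above on that array alone were left out, which gave 3, 0, 3, 0, 3, 17, 0 and 245, and spots with a brighter local background were left out, which gave 0 in ExTQ003. In the 60 limma fits with 0 called, 11 to 249 members had an unadjusted p under 0.05. Leaving out 1 strain at a time gave 2 to 23, 0 to 1, 20 to 26, 0 to 0, 0 to 1, 25 to 34, 0 to 0 and 214 to 298. Of 36 named calls 23 were kept in all such fits, and chr4:12323099-12323158 and chr3:6389771-6389830 in ExTQ003 reversed with normexp (−0.775 and −0.494) and with the series values (−5.404 and −2.549).

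The median difference of all members, reported nowhere as a call, moved with normalization. Quantile normalization gave 0.271 in ExTQ002, 0.051 in ExTQ013, 0.131 in ExTQ015, −0.239 in ExTQ016, −0.198 in ExTQ018 and 0.111 in ExTQ019, where the 75th percentile gave −0.012, −0.127, 0.046, 0.035, 0.004 and −0.133. Normexp gave 0.015 in ExTQ013, 0.003 in ExTQ003, −0.057 in ExTQ016 and 0.026 in ExTQ019, and the series values 0.013, 0.002, −0.05 and 0.024. On chromosome 5 after base 20000000 ExTQ019 kept its direction in every alternative run, at −0.247 with normexp, −0.223 with the series values and −0.674 to −0.701 without 1 strain. Bins of at least 0.5 in size in ExTQ019 numbered 0 with normexp and the series values, 2 with bins of 5000000 bases and 4 to 5 without 1 strain, and within the slide 1 appeared in ExTQ002 and 1 in ExTQ003. Members with an SD of at least 1 numbered 10 with normexp and the series values, 338 over members above on at least 1 array, and 16 to 46 without 1 strain, 16 without ExTQ019. The positive and significant mark, a looser one, raised the share of interval probes to 47.6, 46.5, 43.4, 48.7, 51.3, 54.2, 51.7 and 54.8%. Except where the construction of an alternative is named, the cause was not tested. No paired analysis was possible because all 8 samples form 1 group, with 1 array per strain.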
